A study of Homo sapiens with 24 samples.

Results

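Clade B serpins are a family of protease inhibitors that mostly act inside the cell. The 10 genes described here (SERPINB1 to SERPINB9 and SERPINB13) were taken by symbol from a table of 59251 genes. They were selected on measured values of these data: SERPINB2, SERPINB3 and SERPINB4 had been among the largest falls when each CHD1 hairpin was set against the GFP hairpin in PE cells. On which values the other symbols were chosen is not known. Values of the 10 genes from that comparison, and from comparisons of the lines that use the same libraries, are therefore given as a description, with no p-value. The study asked how loss of CHD1, a chromatin remodeller, affects cells driven by the oncogene MYC.

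The samples were 2 lines of MCF10A, a human breast epithelial cell line grown with EGF, hydrocortisone, cholera toxin, insulin and horse serum. Line PE is non-transformed and line PM is transformed by MYC. Each line carried a short hairpin RNA against GFP (shGFP, the control), or hairpin A or hairpin B against CHD1 (shCHD1 A, shCHD1 B). All 6 groups, controls included, received doxycycline at 50 ng/ml for 72 h, and each had 4 libraries labelled as biological replicates. The sources used here do not give whether the lines are clones or pools. A p-value here sets a difference of group means against the spread of these libraries within the 6 groups. In bulk RNA, fewer expressing cells and less RNA per cell cannot be told apart.

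Libraries held 4.14 to 93.3 M counts each, and the shallowest was the first GFP replicate of PE. CHD1 stood at 74.2 to 95.3 CPM (counts scaled to library depth, with TMM factors) with the GFP hairpin and at 22.2 to 34.3 CPM with hairpins A and B, so the knockdown showed in every library. Of 9 markers of breast epithelium, 8 were over 1 CPM in every group except PE with hairpin B, where 6 were. Of 6 immune markers only CD68, a lysosomal protein that other cells also make, was over 1 CPM, while the others were at or near 0. Replicate 3 of hairpin B in PM held counts for 33137 genes, against 18380 to 24764 in the other libraries.

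A serpin holds out a flexible reactive centre loop as bait. The protease cuts the loop, the serpin snaps into a more stable shape, and the enzyme is left trapped and distorted. In humans the clade B genes sit in 2 clusters, and squamous and glandular epithelia express many of them. SERPINB2 (plasminogen activator inhibitor 2) inhibits urokinase, SERPINB3 (squamous cell carcinoma antigen 1) inhibits papain-like cathepsins, and SERPINB4 (squamous cell carcinoma antigen 2) inhibits chymotrypsin-like proteases. SERPINB5 (maspin) is a breast epithelial serpin that does not inhibit proteases in the classical way.

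In the GRCh38.p14 annotation, SERPINB1 (chr6:2832332-2841863), SERPINB9 (chr6:2887270-2903309) and SERPINB6 (chr6:2948159-2971793) lie on chromosome 6. The other 7 lie on chromosome 18, in the order SERPINB5 (chr18:63476958-63505085), SERPINB13 (chr18:63587343-63599192), SERPINB4 (chr18:63637259-63644256), SERPINB3 (chr18:63655197-63661893), SERPINB7 (chr18:63753057-63805370), SERPINB2 (chr18:63887705-63903888) and SERPINB8 (chr18:63970081-64019779). The 3 genes with the largest changes thus sit in the chromosome 18 cluster.

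SERPINB3 and SERPINB4 are neighbours whose coding sequences differ at 56 of 1170 bases (95.21% identical), so a read can fit both genes. In the GENCODE transcripts, 23.2% of all 50-base windows of the aligned coding sequences and 4.11% of 100-base windows were identical between them, and none of the 1021 windows of 150 bases was. The sources used here give neither the read length nor how reads with more than one place were counted, so the division of counts between these 2 genes is uncertain. Of 4 equal parts of the coding sequence, the last held 22 of the differences and the first held 5. The 120 bases from 952 to 1071 of the coding sequence hold 18 of them. This stretch is shown because it is the 120-base window, in frame, with the most differences. Its later part runs into the reactive centre loop, the part by which the 2 proteins choose different proteases. Capitals mark the bases that differ, and not all of them lie in the loop.
SERPINB3: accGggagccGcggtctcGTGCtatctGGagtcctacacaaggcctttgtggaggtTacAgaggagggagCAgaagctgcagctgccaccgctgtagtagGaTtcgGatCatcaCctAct
SERPINB4: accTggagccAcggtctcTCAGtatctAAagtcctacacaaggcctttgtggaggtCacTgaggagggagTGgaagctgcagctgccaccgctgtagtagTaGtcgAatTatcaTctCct

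The 250 bases before each gene's start (RefSeq, GRCh38.p14) are shown for the 3 genes with the largest changes. Those of SERPINB3 (chr18:63661894-63662143, minus strand) and SERPINB4 (chr18:63644257-63644506, minus strand) differ at 3 bases, in capitals, and are 98.8% identical. Both are therefore close copies upstream as well as in their coding sequence.
SERPINB3: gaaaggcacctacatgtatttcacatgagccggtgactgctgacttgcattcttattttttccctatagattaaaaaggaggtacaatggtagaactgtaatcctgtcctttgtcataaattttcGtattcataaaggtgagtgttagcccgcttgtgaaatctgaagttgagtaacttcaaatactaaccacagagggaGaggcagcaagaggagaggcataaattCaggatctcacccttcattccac
SERPINB4: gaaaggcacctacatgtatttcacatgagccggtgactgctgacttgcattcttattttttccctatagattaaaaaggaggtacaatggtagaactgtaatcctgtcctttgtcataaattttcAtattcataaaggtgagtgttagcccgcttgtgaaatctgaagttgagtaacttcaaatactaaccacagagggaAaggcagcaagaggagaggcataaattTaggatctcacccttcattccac

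In the window of SERPINB2 (chr18:63887455-63887704, plus strand), capitals mark letters of an AP-1 motif (TGANTCA), starting 102 bases before the gene's start, and of a TATA box (TATAAA), starting 30 bases before it.
SERPINB2: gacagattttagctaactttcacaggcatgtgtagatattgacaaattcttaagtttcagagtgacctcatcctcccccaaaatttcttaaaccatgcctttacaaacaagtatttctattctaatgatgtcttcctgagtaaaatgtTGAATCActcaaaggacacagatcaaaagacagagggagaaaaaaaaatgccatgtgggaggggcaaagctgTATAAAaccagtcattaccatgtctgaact

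These motifs and ETS letters (GGAAG) were searched on both strands, with overlaps allowed, in the windows of all 10 genes, which had 15 windows because SERPINB6 and SERPINB7 have several starts. AP-1 letters were in the windows of 5 genes, SERPINB2, SERPINB5, SERPINB7, SERPINB8 and SERPINB13, all on chromosome 18. They were in 6 of the 15 windows, against 6.57% of 35116 promoter windows of the same length. TATA letters were in 4 windows, of SERPINB2, SERPINB7, SERPINB8 and SERPINB9 (10.7% of all windows), and ETS letters in 7 windows of 6 genes (65.1% of all windows). The windows of SERPINB3 and SERPINB4 held none of the 3 motifs as spelled. A match is a description of letters, not of binding.

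With the GFP hairpin, 8 of the 10 genes had enough counts to pass the filter for testing, and their levels spanned a wide range. Per kilobase of each gene's principal GENCODE transcript, the order in PE was SERPINB5 (55.1 ± 5.18 CPM per kb, SD, n = 4), SERPINB1 (50.4 ± 10.8), SERPINB6 (20.2 ± 2.64), SERPINB8 (18.8 ± 2.28), SERPINB3 (10.9 ± 4.30), SERPINB4 (10.2 ± 5.34), SERPINB2 (4.81 ± 1.85) and SERPINB7 (0.478 ± 0.303). Neighbours in this order differed by less than their SDs for SERPINB5 and SERPINB1, for SERPINB6 and SERPINB8, and for SERPINB3 and SERPINB4. The order was the same in PM, with SERPINB5 at 54.6 ± 4.64 and SERPINB1 at 25.6 ± 3.36 CPM per kb, and there SERPINB4 (1.37 ± 1.16) and SERPINB2 (1.05 ± 0.493) differed by less than their SDs. The order depends on the length used. With all annotated exons of a gene counted, SERPINB1 (42.6 CPM per kb) came before SERPINB5 (38.9) in PE, and SERPINB6, whose exons span 13201 bases against 5620 in its principal transcript, fell below SERPINB8 (8.60 against 11.2). Under hairpin B in PE, SERPINB2, SERPINB3 and SERPINB4 ranked below SERPINB7, at 0.207, 0.163 and 0.101 CPM per kb against 0.441.

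SERPINB9, an inhibitor of granzyme B, and SERPINB13, a keratinocyte serpin, did not pass the filter. SERPINB9 had 23 counts in 6 of 24 libraries, 12 of them in the third GFP replicate of PE. SERPINB13 had 6 counts, all in replicate 3 of hairpin B in PM, the library with the most detected genes. A floor of 3 counts corresponds to 0.0323 to 0.668 CPM, so lower levels were not detectable at this depth. The family's symbols outside the list were as low: SERPINB10 had 25 counts, SERPINB12 had 32 and SERPINB11 had none.

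SERPINB2, SERPINB3 and SERPINB4 were present in PE with the GFP hairpin and below 1 CPM with hairpin B. SERPINB2 stood at 13.6, 7.54, 14.0 and 6.37 CPM in the 4 GFP libraries of PE, at 2.02, 0.938, 0.421 and 0.318 CPM with hairpin A and at 0.158, 0.825, 0.552 and 0.249 CPM with hairpin B. Every CHD1 hairpin library lay below every GFP library, while the 2 CHD1 hairpins overlapped. The log2 change was −3.45 (SE 0.75) with hairpin A and −4.59 (SE 0.80) with hairpin B.

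SERPINB3 stood at 29.4, 18.2, 19.4 and 10.8 CPM in PE with the GFP hairpin, at 4.00, 3.60, 1.80 and 1.25 CPM with hairpin A and at 0.580, 0.229, 0.0628 and 0.290 CPM with hairpin B. The 3 groups did not overlap, and hairpin B was lowest. SERPINB4 stood at 31.4, 15.1, 15.3 and 9.78 CPM with the GFP hairpin, at 3.42, 2.75, 1.77 and 0.131 CPM with hairpin A and at 0.580, 0.0458, 0.0377 and 0.0415 CPM with hairpin B. Replicate 1 was the highest of its group for both genes in all 3 PE groups, and replicate 4 the lowest with the GFP hairpin and with hairpin A. With hairpin A the log2 change was −2.84 (SE 0.52) for SERPINB3 and −3.11 (SE 0.88) for SERPINB4, and with hairpin B it was −6.12 (SE 0.64) and −6.79 (SE 1.13). Without replicate 1 of hairpin B, the value of SERPINB4 with that hairpin was −8.66.

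The abundant members moved less in PE. SERPINB1, an inhibitor of neutrophil elastase and cathepsin G, went from 165, 138, 128 and 96.9 CPM to 73.5, 80.6, 77.3 and 67.0 CPM with hairpin A and to 58.3, 60.3, 60.5 and 64.9 CPM with hairpin B. SERPINB8, an inhibitor of furin, went from 65.5 ± 7.92 to 45.9 ± 4.70 and 45.7 ± 4.03 CPM, and SERPINB5 from 153 ± 14.4 to 122 ± 11.3 and 106 ± 6.97 CPM (SD, n = 4). For each of these 3 genes every library of either CHD1 hairpin was below every GFP library. SERPINB6, a widely expressed inhibitor of cathepsin G, went the other way, from 114 ± 14.9 to 130 ± 6.58 and 134 ± 4.37 CPM, with no overlap. The share of all tested genes with no overlap between hairpins within a line was not counted, in PE or in PM. SERPINB7, an epidermal serpin, was low throughout, at 1.05 ± 0.669, 0.546 ± 0.235 and 0.971 ± 0.389 CPM, and its groups overlapped.

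Of the 8 tested genes, 6 were below the GFP hairpin past the threshold with hairpin A in PE and 6 with hairpin B, the same 6 genes (SERPINB1 to SERPINB5 and SERPINB8). Over all 20820 tested genes, 9.33% were lower with hairpin A, 13.2% with hairpin B and 5.58% with both. This comparison chose the members, so nothing is read from these counts. The summed level of the 10 genes was 513 ± 44.8 CPM with the GFP hairpin, 378 ± 8.51 CPM with hairpin A and 348 ± 12.9 CPM with hairpin B. Beside these values, the summed fibroblast and endothelial markers ran from 13.4 to 15.8 CPM in PE with the GFP hairpin, 17.2 to 21.5 CPM with hairpin A and 17.2 to 22.9 CPM with hairpin B, and the endothelial marker CDH5 was at 0 in all 3 groups. The summed immune markers ran from 43.5 to 60.6, 37.1 to 45.5 and 37.2 to 65.5 CPM. The part of these markers in the serpin values was not tested.

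**Figure D1:**
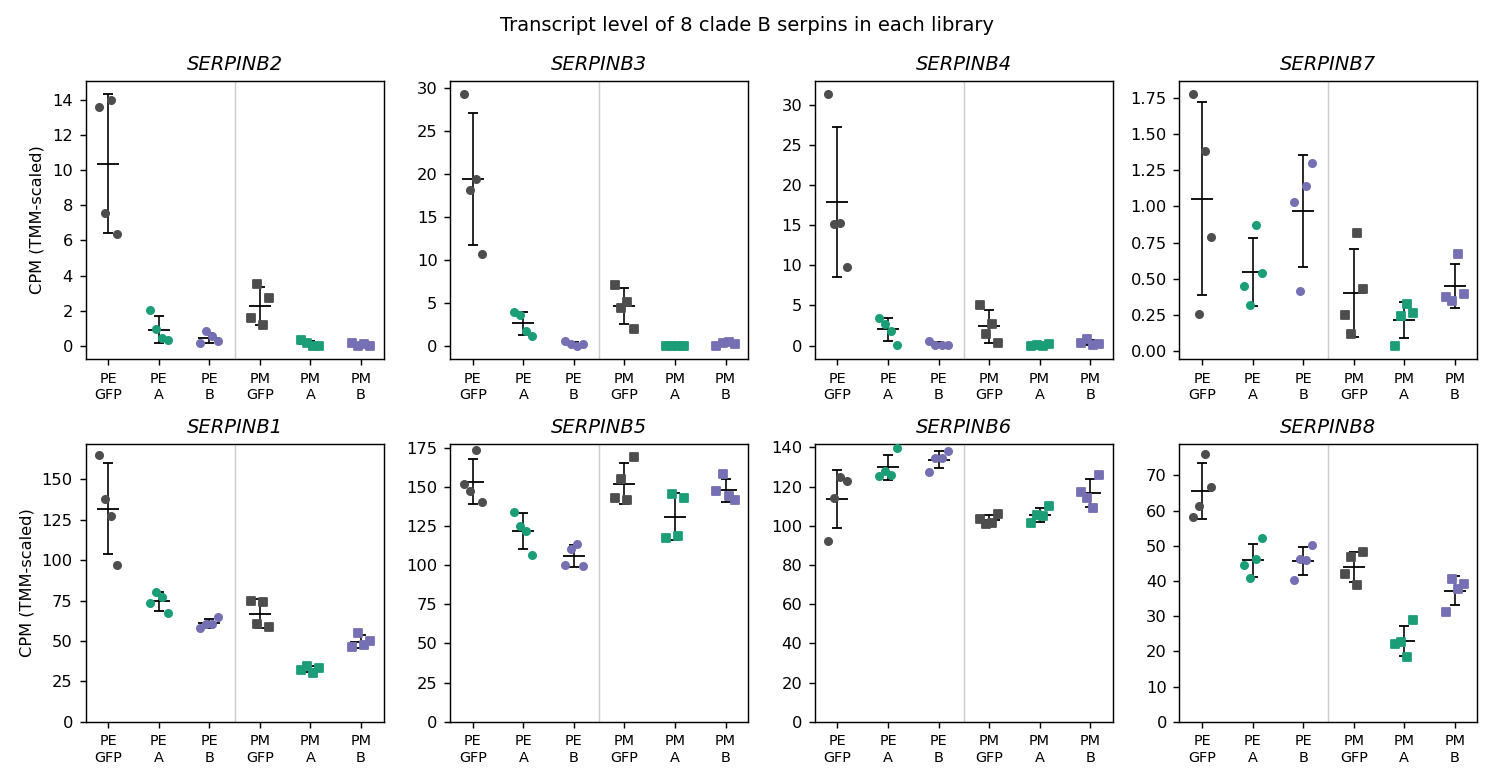
Level of 8 clade B serpins in each of the 24 libraries, in CPM after TMM scaling on linear axes that differ between panels, by line (PE circles, PM squares) and hairpin (GFP, A, B). Points are libraries in order of replicate number, the black dash is the mean and the bar is ± 1 SD (n = 4). SERPINB2, SERPINB3 and SERPINB4 are at 6.37 to 31.4 CPM in PE with the GFP hairpin and at most 4.00 CPM with either CHD1 hairpin.

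The tests of a CHD1 hairpin against the GFP hairpin rest on PM, whose libraries did not choose SERPINB2, SERPINB3 and SERPINB4; hairpins A and B there share the same 4 GFP libraries. In PM, SERPINB1, SERPINB2, SERPINB3 and SERPINB4 fell with both CHD1 hairpins. SERPINB5 and SERPINB8 fell with hairpin A, and SERPINB6 rose with hairpin B. The largest falls were again those of SERPINB2, SERPINB3 and SERPINB4, which had lower levels in PM to begin with.

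SERPINB2 stood at 1.59, 3.52, 1.20 and 2.72 CPM in PM with the GFP hairpin. It was at 0.328, 0.148, 0 and 0 CPM with hairpin A and at 0.156, 0, 0.0944 and 0 CPM with hairpin B. No CHD1 hairpin library reached the lowest GFP library. Its log2 change was −4.51 (SE 0.92, adjusted p = 7.26e-04 by edgeR's quasi-likelihood test) with hairpin A and −4.84 (SE 0.90, adjusted p = 3.03e-04) with hairpin B. In counts pooled over the libraries, 455 with the GFP hairpin stood against 16 and 19, a 26.5-fold difference after scaling to depth with either hairpin (95% counting intervals 16.1 to 46.8 and 16.7 to 44.3).

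SERPINB3 stood at 7.17, 4.43, 5.16 and 2.07 CPM in PM with the GFP hairpin, at 0.0655, 0.0738, 0 and 0 CPM with hairpin A and at 0.0909, 0.444, 0.472 and 0.292 CPM with hairpin B. The 3 groups did not overlap, and here hairpin A was the lowest. Relative to the GFP hairpin it fell by a log2 change of −7.32 (SE 0.85, edgeR adjusted p = 1.10e-06) with hairpin A, where only 5 counts were left of 944, and −3.89 (SE 0.59, adjusted p = 3.32e-05) with hairpin B, where 70 were left. Pooled and scaled to depth, these are 176-fold (75.2 to 543) and 14.9-fold (11.7 to 19.3) below the GFP hairpin, with intervals for counting error alone.

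SERPINB4 stood at 5.12, 1.43, 2.64 and 0.386 CPM in PM with the GFP hairpin, at 0, 0.0492, 0 and 0.228 CPM with hairpin A and at 0.325, 0.856, 0.121 and 0.209 CPM with hairpin B. Hairpin A lay wholly below the GFP libraries and hairpin B overlapped them. SERPINB4 fell by a log2 change of −5.47 (SE 1.28, edgeR adjusted p = 2.96e-03) with hairpin A and −2.77 (SE 0.96, adjusted p = 0.0375) with hairpin B. The latter call was lost without replicate 1, 3 or 4 of hairpin B or replicate 1 or 3 of the GFP hairpin in PM (adjusted p 0.0720 to 0.134), with limma-voom (adjusted p = 0.0591) and with no filter on low counts (adjusted p = 0.0695).

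Because reads of SERPINB3 and SERPINB4 can be exchanged, the genes were also summed before the fit. The sum fell from 7.10 ± 4.10 CPM in PM with the GFP hairpin to 0.104 ± 0.0967 CPM with hairpin A (log2 change −6.48, SE 0.93, edgeR adjusted p = 2.54e-05) and 0.702 ± 0.405 CPM with hairpin B (−3.42, SE 0.67, adjusted p = 6.45e-04). In PE the sum went from 37.3 ± 16.9 to 4.69 ± 2.73 and 0.467 ± 0.472 CPM.

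With the GFP hairpin, the counts of the 2 genes were about equal in PE and tilted to SERPINB3 in PM: SERPINB3 took 48.4% to 55.9% of their joint counts in the 4 PE libraries and 58.4% to 84.3% in the 4 PM libraries, and the 2 ranges did not overlap. With the CHD1 hairpins the order of the lines was not kept: the mean share over libraries was 62.9% with hairpin A and 70.8% with hairpin B in PE, and 48.5% with hairpin B in PM, where the pooled counts were 70 and 71. Hairpin A in PM left 5 counts of SERPINB3 and 9 of SERPINB4. In replicate 4 of hairpin A in PE, SERPINB3 had 67 of 74 counts (90.5%, exact 95% interval 81.5% to 96.1%). With hairpin B in PM the share ran from 21.9% (9.28% to 39.97%) in replicate 1 to 79.5% (64.7% to 90.2%) in replicate 3, on 24 to 44 counts a library. The intervals cover counting error only.

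**Figure D2:**
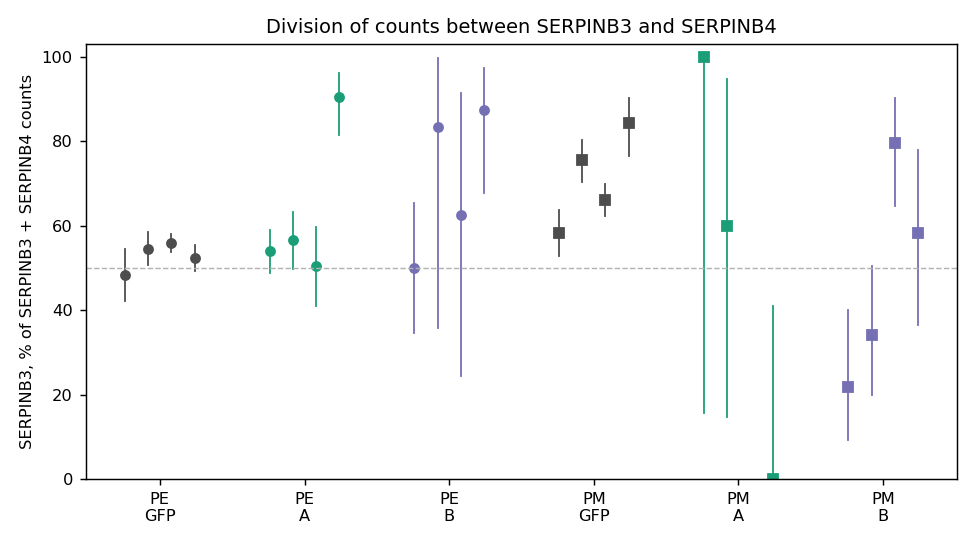
SERPINB3 as a percentage of SERPINB3 plus SERPINB4 counts in each library, by line (PE circles, PM squares) and hairpin, with exact 95% binomial intervals as vertical lines and a dashed line at equal division. PE libraries with the GFP hairpin lie at 48.4% to 55.9% and PM libraries with it at 58.4% to 84.3%; 1 library of PM with hairpin A had no count for either gene and is not drawn.

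SERPINB1 stood at 74.7, 60.2, 74.4 and 58.5 CPM in PM with the GFP hairpin, at 31.9, 34.6, 30.3 and 32.96 CPM with hairpin A and at 46.1, 55.2, 47.5 and 49.7 CPM with hairpin B. The 3 groups did not overlap. SERPINB1 fell by a log2 change of −1.05 (SE 0.11, edgeR adjusted p = 9.55e-09) with hairpin A and −0.43 (SE 0.11, adjusted p = 2.15e-03) with hairpin B.

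SERPINB8 stood at 42.02, 46.8, 38.9 and 48.3 CPM in PM with the GFP hairpin, at 22.0, 22.6, 18.4 and 28.8 CPM with hairpin A and at 31.3, 40.6, 37.8 and 39.02 CPM with hairpin B. Hairpin A lay below every other PM library, while hairpin B overlapped the GFP hairpin. The log2 change was −0.95 (SE 0.11, edgeR adjusted p = 6.02e-08) with hairpin A and −0.24 (SE 0.11, adjusted p = 0.0966) with hairpin B. With the replicate number as a block, the change with hairpin B kept its size (−0.24) and passed the threshold (adjusted p = 0.0332).

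SERPINB5, the most abundant member per kilobase, moved little in PM. It stood at 143, 155, 141 and 169 CPM with the GFP hairpin, at 117, 145, 119 and 143 CPM with hairpin A and at 147, 158, 144 and 142 CPM with hairpin B, and all 3 groups overlapped. The log2 change was −0.22 (SE 0.08, edgeR adjusted p = 0.0405) with hairpin A and −0.04 (SE 0.08, adjusted p = 0.780) with hairpin B. The call with hairpin A was lost without replicate 1 or 3 of hairpin A or replicate 2 or 4 of the GFP hairpin in PM (adjusted p 0.0824 to 0.183), with DESeq2 size factors (adjusted p = 0.0598) and with the DESeq2 Wald test (adjusted p = 0.0719).

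SERPINB6 stood at 104, 101, 101 and 106 CPM in PM with the GFP hairpin, at 101, 106, 105 and 110 CPM with hairpin A and at 117, 114, 109 and 126 CPM with hairpin B. Hairpin B lay above the GFP libraries and hairpin A overlapped them. The log2 change was 0.04 (SE 0.07, edgeR adjusted p = 0.769) with hairpin A and 0.18 (SE 0.07, adjusted p = 0.0462) with hairpin B. The call with hairpin B was lost without replicate 1 or 4 of hairpin B or replicate 2 or 3 of the GFP hairpin in PM (adjusted p 0.0570 to 0.0980) and with no filter on low counts (adjusted p = 0.0775).

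SERPINB7 stood at 0.252, 0.117, 0.817 and 0.427 CPM in PM with the GFP hairpin and passed with neither CHD1 hairpin (log2 changes −0.88, SE 0.63, and 0.13, SE 0.61; edgeR adjusted p = 0.342 and 0.917). At 49 to 109 counts pooled per group, its SE of over 0.60 leaves changes of that size undetectable.

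Of the 8 tested members, 6 fell and none rose with hairpin A in PM, where 14.3% of all tested genes fell. With hairpin B, 4 fell (14.4% of all genes did) and 1 rose (13.6% of all genes did). The 4 that fell with both hairpins stand beside 6.89% of all genes. With SERPINB3 and SERPINB4 summed before the fit, 5 members passed with hairpin A, 4 with hairpin B and 3 with both. Limma-voom and the fit with no filter on low counts each gave 3 with both. The median log2 change of the 8 was −0.996 with hairpin A and −0.338 with hairpin B, against −0.00586 and 0.0136 over all tested genes. The summed level of the 10 genes was 376 ± 9.20 CPM with the GFP hairpin, 292 ± 22.7 CPM with hairpin A and 353 ± 13.9 CPM with hairpin B.

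Beside these falls, the summed immune markers, nearly all CD68, ran from 38.1 to 43.3 CPM in PM with the GFP hairpin, 14.4 to 20.0 CPM with hairpin A and 25.3 to 32.99 CPM with hairpin B. The summed fibroblast and endothelial markers ran from 6.91 to 7.78 CPM with the GFP hairpin, 11.8 to 15.2 CPM with hairpin A and 12.0 to 21.2 CPM with hairpin B. The immune marker TYROBP was at 0 in all libraries of all 3 PM groups. The part of these markers in the serpin changes was not tested.

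**Figure D3:**
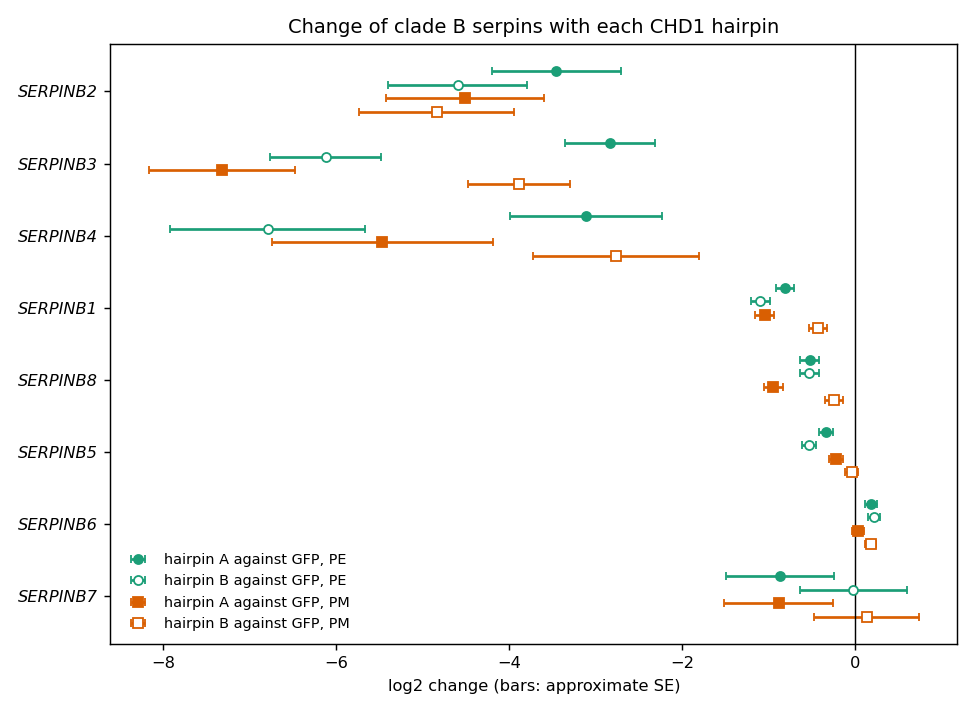
Log2 change of 8 clade B serpins with hairpin A (filled) or hairpin B (open) against the GFP hairpin, in PE (circles) and PM (squares); bars are the approximate SE. SERPINB2, SERPINB3 and SERPINB4 lie between −2.77 and −7.32 in all 4 comparisons, SERPINB1 between −0.43 and −1.10, and SERPINB6 above 0.

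The 2 CHD1 hairpins left different amounts of several serpins. For SERPINB3 the difference passed the threshold in both lines, with hairpin B below hairpin A in PE and above it in PM. The PE libraries of both hairpins also took part in choosing SERPINB2, SERPINB3 and SERPINB4, by their fall against the GFP hairpin. The PE p-values of these genes for hairpin B against hairpin A are therefore not those of an independent test. In PE, hairpin B left less SERPINB3 than hairpin A (log2 difference −3.29, SE 0.61, edgeR adjusted p = 6.47e-04) and less SERPINB4 (−3.68, SE 1.08, adjusted p = 0.0242). In PM, hairpin B left more SERPINB3 than hairpin A (3.43, SE 1.05, adjusted p = 0.0186), more SERPINB1 (0.61, SE 0.11, adjusted p = 5.93e-05) and more SERPINB8 (0.70, SE 0.11, adjusted p = 1.15e-05). SERPINB3 held only 5 counts with hairpin A and 70 with hairpin B in PM, and it passed the filter through other groups. Its PM test is therefore weak ground for a difference between the hairpins. CHD1 itself was at 28.2 to 30.8 CPM with hairpin A and 23.6 to 30.2 CPM with hairpin B in PE, and at 27.6 to 34.3 and 22.2 to 33.8 CPM in PM, so its ranges overlapped between the hairpins in both lines.

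The counts of members that differed between the hairpins were 2 of 8 in PE and 3 of 8 in PM, against 16.6% and 26.3% of all tested genes. The 2 in PE were SERPINB3 and SERPINB4, whose choice used these PE libraries, so nothing is read from that count. With these 2 genes summed, 1 member passed in PE and 3 in PM. In PE, SERPINB1 (log2 difference −0.29, SE 0.11, edgeR adjusted p = 0.0582) and SERPINB5 (−0.20, SE 0.08, adjusted p = 0.0800) missed the threshold, as did SERPINB7 (0.85, SE 0.60, adjusted p = 0.395). SERPINB1 passed with no filter on low counts (edgeR adjusted p = 8.69e-03) and in a fit of the compared groups alone (5.88e-03), and SERPINB5 without replicate 4 of hairpin A (0.0300). In PM, SERPINB4 (2.70, SE 1.46, adjusted p = 0.204), SERPINB5 (0.18, SE 0.08, adjusted p = 0.107), SERPINB6 (0.14, SE 0.07, adjusted p = 0.126) and SERPINB7 (1.01, SE 0.63, adjusted p = 0.265) missed it, although every hairpin B library of SERPINB7 was above every hairpin A library. SERPINB5 and SERPINB6 passed with library sizes alone (edgeR adjusted p = 0.0291 and 9.90e-03) and with at least 5 CPM in 4 libraries (0.0360 and 0.0148). SERPINB5 also passed without replicate 2 of hairpin A (0.0355), and SERPINB6 with the DESeq2 Wald test (0.0408). SERPINB2 passed in neither line (−1.14, SE 0.76, adjusted p = 0.372 in PE; −0.33, SE 1.17, adjusted p = 0.887 in PM), and its SEs leave differences of that size undetectable.

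The difference of SERPINB4 in PE rests on few counts, 336 with hairpin A and 29 with hairpin B. Its call was lost without replicate 1 or 2 of hairpin A or replicate 2, 3 or 4 of hairpin B in PE (adjusted p 0.0556 to 0.0937), with limma-voom (adjusted p = 0.100) and in a fit of the compared groups alone (adjusted p = 0.0681). The difference of SERPINB3 in PM, 70 counts against 5, was lost without replicate 3 or 4 of hairpin A or replicate 3 of hairpin B in PM (adjusted p 0.0509 to 0.103) and with limma-voom (adjusted p = 0.157). In a fit of the compared PM groups alone, SERPINB2, SERPINB3 and SERPINB4 did not pass the filter and have no value. For the summed genes the log2 difference was −3.45 (SE 0.72, edgeR adjusted p = 2.24e-03) in PE and 3.05 (SE 1.11, adjusted p = 0.0494) in PM.

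For SERPINB3 and SERPINB1, every hairpin B library lay below every hairpin A library in PE and above every one in PM. The hairpin difference was higher in PM than in PE by 6.72 (log2, SE 1.17) for SERPINB3, by 0.90 (SE 0.15) for SERPINB1 and by 0.71 (SE 0.16) for SERPINB8. For SERPINB8 hairpin B stood at −0.01 (SE 0.11) against hairpin A in PE and at 0.70 in PM. These line differences are a description and were not tested. For SERPINB3 in PM, the highest hairpin A library held 3 counts and the lowest hairpin B library held 7. The share of all tested genes with such opposite shifts was not counted.

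**Figure D4:**
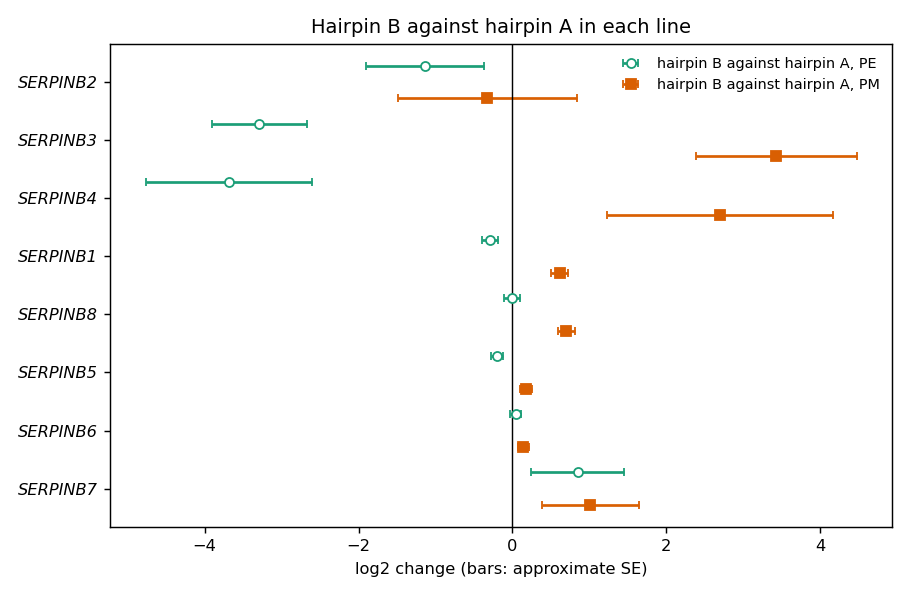
Log2 difference of hairpin B against hairpin A for 8 clade B serpins in PE (open circles) and PM (filled squares); bars are the approximate SE. SERPINB3 lies at −3.29 in PE and 3.43 in PM, SERPINB1 at −0.29 and 0.61, and SERPINB8 at −0.01 and 0.70.

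The lines differed in their serpin levels before any CHD1 knockdown, and these values are a description because they use the PE libraries that chose the members. With the GFP hairpin, SERPINB4, SERPINB2 and SERPINB3 were lower in PM than in PE by log2 changes of −2.89 (SE 0.87), −2.18 (SE 0.70) and −2.02 (SE 0.50), SERPINB1 by −0.96 (SE 0.11) and SERPINB8 by −0.59 (SE 0.11). For these 5 of the 8 members every PM library was below every PE library, as it was for 10.1% of all tested genes. SERPINB5 was at the same level in both lines within its error (−0.01, SE 0.08), SERPINB6 differed by −0.15 (SE 0.07) and SERPINB7 by −1.27 (SE 0.63), and the libraries of these 3 overlapped.

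With hairpin A, SERPINB3 was lower in PM than in PE by a log2 change of −6.51 (SE 0.87; −7.39 without replicate 2 of hairpin A in PM), SERPINB1 by −1.20 (SE 0.11) and SERPINB8 by −1.01 (SE 0.11). With hairpin B the lines were closer: SERPINB3 differed by 0.21 (SE 0.69), SERPINB8 by −0.30 (SE 0.11) and SERPINB1 by −0.30 (SE 0.11). SERPINB5 was higher in PM than in PE with hairpin B (0.48, SE 0.08), with no overlap of libraries.

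Across the 24 libraries, log2 levels of SERPINB3 and SERPINB4 correlated at r = 0.91, SERPINB1 and SERPINB3 at 0.90, and SERPINB1 and SERPINB8 at 0.88, while SERPINB5 and SERPINB6 stood at −0.56. These points share groups and libraries. After each group's mean was removed, the values were 0.53 for SERPINB3 and SERPINB4, 0.52 for SERPINB1 and SERPINB3 and −0.19 for SERPINB1 and SERPINB8. Replicate 1 was highest and replicate 4 lowest for SERPINB1, SERPINB3 and SERPINB4 alike in the GFP groups of both lines.

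Of 10751 protein-coding genes, those whose log2 level followed a member most closely over the 24 libraries were NFKBIA (r = 0.95), IL1A and KLHL5 for SERPINB1, ATP1B1 (0.93), SLC39A8 and LAMB3 for SERPINB2, and SPC25 (0.94), SLC39A8 and NFKBIA for SERPINB3. For SERPINB4 they were PI3 (0.91), KRT6A and SLC39A8, for SERPINB5 DHRS7 (0.92), S100A2 and SLPI, and for SERPINB8 LYPD3 (0.94), BCAR3 and TIMP1. CSNK1D (0.95) and GNAI2 were among the nearest 3 for SERPINB6, and GRN (0.83), PRDM1 and KCTD11 were the nearest for the low SERPINB7. SLC39A8, a zinc and manganese transporter, was thus among the nearest 3 for each of SERPINB2, SERPINB3 and SERPINB4.

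Of 11 tested serpins of other clades, none fell and 2 rose with both CHD1 hairpins in each line, where 6.75% of all tested genes rose with both in PE and 6.46% in PM. In PE the count was 1 without replicate 2 of the GFP hairpin. SERPINA5 (protein C inhibitor) rose from 4.196 ± 0.870 to 11.0 ± 2.34 and 10.7 ± 2.59 CPM in PE (mean log2 change 1.31, SE 0.20) and from 1.84 ± 0.464 to 5.94 ± 0.850 and 6.52 ± 1.98 CPM in PM (1.79, SE 0.21). The larger edgeR adjusted p of its 2 hairpins was 3.50e-05 in PE and 3.71e-07 in PM.

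Other protease inhibitors of epithelia fell in part. Of 11 tested, 4 fell with both hairpins in PE and 3 in PM, and none rose, where 5.58% and 6.89% of all tested genes fell. PI3 (elafin, an elastase inhibitor) fell from 136 ± 27.2 to 23.4 ± 4.86 and 12.1 ± 2.90 CPM in PE and from 53.7 ± 5.40 to 8.76 ± 1.87 and 13.2 ± 2.22 CPM in PM. SLPI, another elastase inhibitor, fell in both lines by mean log2 changes of −1.33 (SE 0.12) and −0.73 (SE 0.12). SPINK5, an inhibitor of epidermal kallikreins, and SPINT2, a Kunitz inhibitor, fell in PE (−5.24, SE 0.69, and −0.76, SE 0.08), and TFPI2 fell in PM (−1.79, SE 0.36). The largest edgeR adjusted p among these was 8.95e-03.

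Of 16 tested proteases that clade B serpins inhibit or that act in the same pathways, 2 rose and 3 fell with both hairpins in PE, and 2 rose and 4 fell in PM. The shares of all tested genes were 6.75% rising and 5.58% falling in PE, and 6.46% and 6.89% in PM. PLAT (tissue plasminogen activator) rose by a mean log2 change of 1.10 (SE 0.14) in PE and 0.80 (SE 0.14) in PM, and CTSD (the aspartic protease cathepsin D) by 1.37 (SE 0.13) and 0.62 (SE 0.12). CTSS (cathepsin S, a papain-like enzyme) fell, at −0.97 (SE 0.25) in PE and −1.90 (SE 0.28) in PM. PRSS8 (prostasin) and ST14 (matriptase) fell in PE (−2.18, SE 0.26, and −1.22, SE 0.07), and ST14 fell in PM too (−0.37, SE 0.07), as did CASP1 (caspase 1; −0.64, SE 0.09). The largest edgeR adjusted p among these was 0.0356, for CTSS in PE.

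Of 15 tested squamous differentiation genes, 4 fell and none rose with both hairpins in PE, and 2 fell and 2 rose in PM, beside the same shares of all tested genes. In PE the number past the threshold was 1 with no filter on low counts or without replicate 1 or 2 of the GFP hairpin, and 2 without replicate 4 of hairpin B. KRT6A and KRT6B, keratins of activated keratinocytes, fell in both lines, by mean log2 changes of −1.30 (SE 0.15) and −1.95 (SE 0.19) in PE and −1.28 (SE 0.15) and −1.64 (SE 0.18) in PM. DSG3, a desmosomal cadherin, and EVPL (envoplakin) fell in PE (−1.26, SE 0.28, and −0.25, SE 0.07). LY6D rose from 0.676 ± 0.231 to 4.35 ± 1.98 and 5.43 ± 1.22 CPM in PM, and SBSN (suprabasin) from 0.150 ± 0.149 to 0.710 ± 0.936 and 0.754 ± 0.199 CPM. The largest edgeR adjusted p among these was 0.0348, for SBSN.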

How the data were processed

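RNA of 24 libraries was measured by poly(A) RNA-seq with a directional kit, per the labels' protocols. The authors trimmed reads with Trim Galore 0.4.0, used HISAT2 2.2.1 for alignment to GRCh38 and featureCounts for the deposited table of counts per gene, per the submitters' processing notes. The sources used here give no annotation, strand setting or rule for multiply mapped reads. The table held whole counts, and no column lacked a sample.

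From these counts edgeR 4.0.16 (R 4.3.3) estimated 1 mean for each group over the 24 libraries (TMM, filterByExpr over the 6 groups, robust quasi-likelihood test, two-sided, with 18 residual degrees of freedom among samples). P-values were adjusted by Benjamini and Hochberg over 20820 genes, with a threshold of 0.05. Each SE is an approximation from the change and the F statistic (change over root F). The ± values are SDs of 4 libraries. Depth sets a floor of 3 counts. The fit was tested on simulated data. The members and lists were chosen with earlier results of these data known. Named genes are all members and, per list, at most 4 genes a line past the threshold with both hairpins, by mean change. Likeness is Pearson's r of log2 CPM among genes whose mean reached 5 CPM in any group. The log2 CPM used a prior count of 2, scaled to the depth of each library. Transcript lengths and coding sequences are GENCODE's, promoters RefSeq's; the principal transcript was chosen as length after an exon union was seen to inflate SERPINB6. No protein sequence was used here. Some genes that these rules name are not reported here.

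Same-numbered libraries deviated together in every tested comparison, and the main fit did not pair them. In the comparisons tested for the members, means of their correlations of deviations from the group means were 0.146 to 0.199. For libraries of unlike number they were −0.0660 to −0.0457. Hairpins A and B against GFP in PE were tested only for the lists. Their means were 0.135 and 0.125, against −0.0452 and −0.0418 for libraries of unlike number. The correlations of same-numbered libraries were 0.112 to 0.214 for hairpin B against GFP in PM and 0.130 to 0.259 for hairpin B against A in PE. They were 0.138 to 0.327 for PM against PE with hairpin B, which was not tested. They were 0.0564 to 0.230 for hairpin A against GFP and 0.0766 to 0.189 for hairpin B against A in PM. Pairing comes from these data; the labels call the number only a biological replicate. Alternatives were DESeq2 (1.42.0) size factors and Wald test, limma-voom (limma 3.58.1), library sizes alone, other filters, the compared groups alone, SERPINB3 and SERPINB4 summed, the replicate block and each library left out.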

Additional observations from a re-analysis of the deposited data

Results flagged for a closer look

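In hairpin B against hairpin A, SERPINB1 and SERPINB3 went opposite ways in the lines: every hairpin B library lay below every hairpin A library in PE and above every one in PM. The log2 difference (PM minus PE) was 0.902 for SERPINB1 and 6.72 for SERPINB3, and the difference was not tested. SERPINB1 in PE missed the threshold (edgeR adjusted p = 0.0582). For SERPINB3 in PM, the highest hairpin A library held 3 counts and the lowest hairpin B library held 7. Past the threshold, the hairpins differed for 16.6% of all tested genes in PE and 26.3% in PM. The share of all genes with such opposite shifts was not counted. In 2 groups 1 library stood far from the other 3. SERPINB4 was at 0.580 CPM in replicate 1 of hairpin B in PE, against 0.0377 to 0.0458 CPM in the others. SERPINB7 was at 0.674 CPM in replicate 3 of hairpin B in PM, against 0.349 to 0.396 CPM. That library held counts for 33137 genes, the most of any library. Of 48 groups of 4 libraries looked at, 2 had such a library, and chance gives about 1 in 20.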

How the results depend on the processing

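Members past the threshold for hairpin B against A in PM numbered 3, and 5 with library sizes alone or with at least 5 CPM in 4 libraries. They numbered 4 with the DESeq2 Wald test, and 2 with limma-voom or in a fit of the compared groups alone. For hairpin B against A in PE they numbered 2, 3 with no filter, and 1 with limma-voom or with SERPINB3 and SERPINB4 summed. For hairpin B against GFP in PM they numbered 5, and 3 with no filter. With single libraries left out the counts ran from 3 to 4 (both hairpins in PM), 5 to 6 (hairpin A in PM), 3 to 5 (hairpin B in PM) and 1 to 3 and 2 to 4 (hairpin B against A in PE and PM). The replicate block gave 6 with hairpin A, 6 with hairpin B and 5 with both in PM, and 2 and 3 for hairpin B against A in PE and PM. Apart from SERPINB8 with hairpin B in PM it changed no member's call. The direction turned, without any call, for SERPINB8 in hairpin B against A in PE (log2 0.00381 with DESeq2 size factors, 0.0364 with library sizes alone, 0.00377 with the DESeq2 Wald test, 0.00109 with no filter, 0.0254 with at least 5 CPM in 4 libraries, and −0.0537 to 0.0676 with a library left out). It also turned for SERPINB5 with hairpin B in PM (0.00762 with library sizes alone, −0.0642 to 0.0232 with a library left out), for SERPINB2 in hairpin B against A in PM (0.555 with limma-voom, −1.13 to 0.898 with a library left out), and, with a library left out, for SERPINB7 with hairpin B in PM (−0.165 to 0.773). Of the values without a test, SERPINB4 in PM against PE was −5.25 with hairpin A and −7.07 without replicate 4 of PM, and 1.13 with hairpin B and 3.00 without replicate 1 of PE. The cause was not tested. Of the other values of members, 1133 kept direction and side of the threshold or moved by less than 1 SD. For the lists of other genes, squamous genes past the threshold in PE numbered 1 with no filter and 1 to 5 with a library left out, and serpins of other clades in PE 1 to 3; the other list counts stayed within 1.5 times under the alternatives run. For the lists, limma-voom, the filters and the left-out libraries were chosen after seeing the data. At 5 CPM in 4 libraries the low members drop out in part and give no value. The low counts of SERPINB2, SERPINB3, SERPINB4 and SERPINB7 limit their precision.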
